A study of Mus musculus with 23 samples.

Results

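Prdm9 and 5 genes whose products work with it at recombination hotspots (Zcwpw1, Zcwpw2, Hells, Cxxc1 and Ewsr1) were followed across testis libraries of 3 inbred mouse strains on 2 diets. The genes were chosen by name for their known roles, at a time when earlier results of these data were known. All 6 were among the 28861 genes of the deposited count table, and all 6 passed the filter on low counts that left 22873 genes to be tested. Whole testis was taken from wild-type males at 16 weeks of age, from animals put at 6 weeks on a high-fat, high-sugar diet (44% fat) or a control diet (10% fat), each with fiber. There were 4 libraries of the obesity-prone strain NZO/HlLtJ per diet. CAST/EiJ, which descends from wild mice of another subspecies, had 4 with 44% fat and 3 with 10% fat. The reference genome's own strain, C57BL/6J, had 4 per diet. The series title asks how genotype and diet interact in mouse models of diabetes.

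PRDM9 is a meiotic protein that reads DNA with a long array of zinc fingers and writes methyl marks on histone H3 at lysines 4 and 36 through its PR/SET domain, and these marked sites become the hotspots where programmed DNA breaks start meiotic recombination. It is made in a short window of early meiotic prophase. The zinc finger array differs between mouse subspecies, so that CAST/EiJ and C57BL/6J use largely different hotspots, and some pairs of alleles give sterile male hybrids. ZCWPW1 is a reader of the paired histone marks that PRDM9 leaves and is needed for breaks to be repaired on time, and ZCWPW2 is its shorter relative with the same kinds of reader domain. HELLS is a chromatin remodeller that opens nucleosomes at hotspots together with PRDM9. CXXC1 (CFP1) is a CpG-binding subunit of the SETD1 histone methyltransferase complexes, and EWSR1 is an RNA-binding protein of the FET family. Both bind PRDM9, and EWSR1 links it to the meiotic chromosome axis.

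The array that sets the choice of hotspot is shown first, because it bears on how reads of Prdm9 can be counted in strains other than C57BL/6J. In the reference, Prdm9 (ENSMUSG00000051977) lies on the minus strand at chr17:15543079-15564354 of GRCm38. Its array spans chr17:15543976-15544899 in the coding part of the GENCODE M21 transcript and holds 11 units of 84 bases, of which 7 are distinct in sequence. The 7 distinct units are given 5′ to 3′ on the coding strand, so that the changes between them can be seen, with the codons of the 3 residues that contact DNA bases in capitals.
Prdm9 zinc finger unit 1: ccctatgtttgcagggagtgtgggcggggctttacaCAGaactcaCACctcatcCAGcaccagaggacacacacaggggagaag
Prdm9 zinc finger unit 2: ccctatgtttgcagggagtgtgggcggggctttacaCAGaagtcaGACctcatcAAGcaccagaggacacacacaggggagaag
Prdm9 zinc finger unit 4: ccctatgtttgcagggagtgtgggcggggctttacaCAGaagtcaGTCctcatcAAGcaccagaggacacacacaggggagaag
Prdm9 zinc finger unit 6: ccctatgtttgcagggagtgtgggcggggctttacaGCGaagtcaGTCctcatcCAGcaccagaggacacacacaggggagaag
Prdm9 zinc finger unit 7: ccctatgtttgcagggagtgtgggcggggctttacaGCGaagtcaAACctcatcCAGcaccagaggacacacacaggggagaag
Prdm9 zinc finger unit 10: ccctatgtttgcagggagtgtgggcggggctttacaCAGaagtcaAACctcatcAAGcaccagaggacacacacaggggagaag
Prdm9 zinc finger unit 11: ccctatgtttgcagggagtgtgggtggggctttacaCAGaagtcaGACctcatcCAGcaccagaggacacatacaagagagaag
Over the 11 units, 10 of the 84 positions vary, and 5 of those 10 fall in the 9 bases of the capital codons. Any 2 units differ at 0 to 7 bases. The array makes up 924 of the 3438 bases of the transcript (26.9%), and 420 of its 825 windows of 100 bases, the length of a read, occur in it more than once. Reads from the array of another allele may match this sequence less well, and the sources used here do not give how strain variants were handled. Any part of this in the level of Prdm9 in CAST/EiJ or NZO/HlLtJ was not tested.

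The libraries held 31.9 to 43.4 M estimated counts (M, 1e+06) for NZO/HlLtJ, 33.0 to 78.7 M for CAST/EiJ, and between 21.9 and 38.4 M for C57BL/6J. Levels are given as counts per 1e+06 counts after TMM scaling (CPM), with the SD over libraries, and differences as log2 fold changes with the standard error (SE) of edgeR's quasi-likelihood fit, whose p-values were adjusted by Benjamini and Hochberg over all 22873 genes. The labels do not say that the samples of a group came from separate animals, so p-values measure the spread between these samples. Markers of elongating spermatids summed to 9640 to 12600 CPM in NZO/HlLtJ, 12900 to 14500 CPM in CAST/EiJ and 11800 to 14000 CPM in C57BL/6J, so the spermatid transcripts of testis were abundant in every library.

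Prdm9 was higher in NZO/HlLtJ than in either other strain, by a fold of 1.35 over CAST/EiJ and 1.28 over C57BL/6J, and did not differ between CAST/EiJ and C57BL/6J beyond error. In NZO/HlLtJ it stood at 6.11, 8.81, 9.12 and 8.05 CPM on 44% fat and 6.69, 8.50, 6.64 and 8.07 CPM on 10% fat. In CAST/EiJ it stood at 4.91, 5.66, 4.17 and 6.62 CPM on 44% fat and 6.71, 5.61 and 6.22 CPM on 10% fat. In C57BL/6J it stood at 6.63, 7.02, 6.13 and 5.05 CPM on 44% fat and 5.49, 5.60, 6.82 and 5.51 CPM on 10% fat. The ranges of the strains overlapped, with 5 of the 8 NZO/HlLtJ libraries above every library of the other strains. The mean was 7.75 ± 1.12 CPM in NZO/HlLtJ (SD, n = 8), 5.70 ± 0.924 CPM in CAST/EiJ (n = 7) and 6.03 ± 0.725 CPM in C57BL/6J (n = 8). The log2 fold change was 0.36 (SE 0.10) for NZO/HlLtJ over C57BL/6J (adjusted p = 0.0022, edgeR) and 0.43 (SE 0.10) for NZO/HlLtJ over CAST/EiJ (adjusted p = 0.000386, edgeR). For CAST/EiJ over C57BL/6J it was -0.07, with a 95% interval of -0.28 to 0.14 (adjusted p = 0.551, edgeR). The ID numbers in the sample titles fall into 3 runs, which no label calls batches. Within runs 1, 2 and 3, Prdm9 in NZO/HlLtJ over C57BL/6J differed by 0.30, 0.45 and 0.33 in mean log2 CPM, in CAST/EiJ over C57BL/6J by -0.07, -0.30 and 0.14, and in NZO/HlLtJ over CAST/EiJ by 0.37, 0.75 and 0.19. On the 10% fat groups alone, Prdm9 in NZO/HlLtJ over CAST/EiJ had a log2 fold change of 0.27 and did not pass (adjusted p = 0.116, edgeR).

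Prdm9 is a low transcript in whole testis: its counts ran from 120 to 377 per library, where counting error alone gives a coefficient of variation of up to 9.13%. The SD over libraries within a group was 8.97% to 19.6% of the mean. Its counts were whole numbers in all 23 libraries, while those of Zcwpw1 and Ewsr1 were whole in 0 libraries. No sequence of at least 200 bases with 90% identity to a Prdm9 exon was found in another GENCODE M21 transcript.

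**Figure D1:**
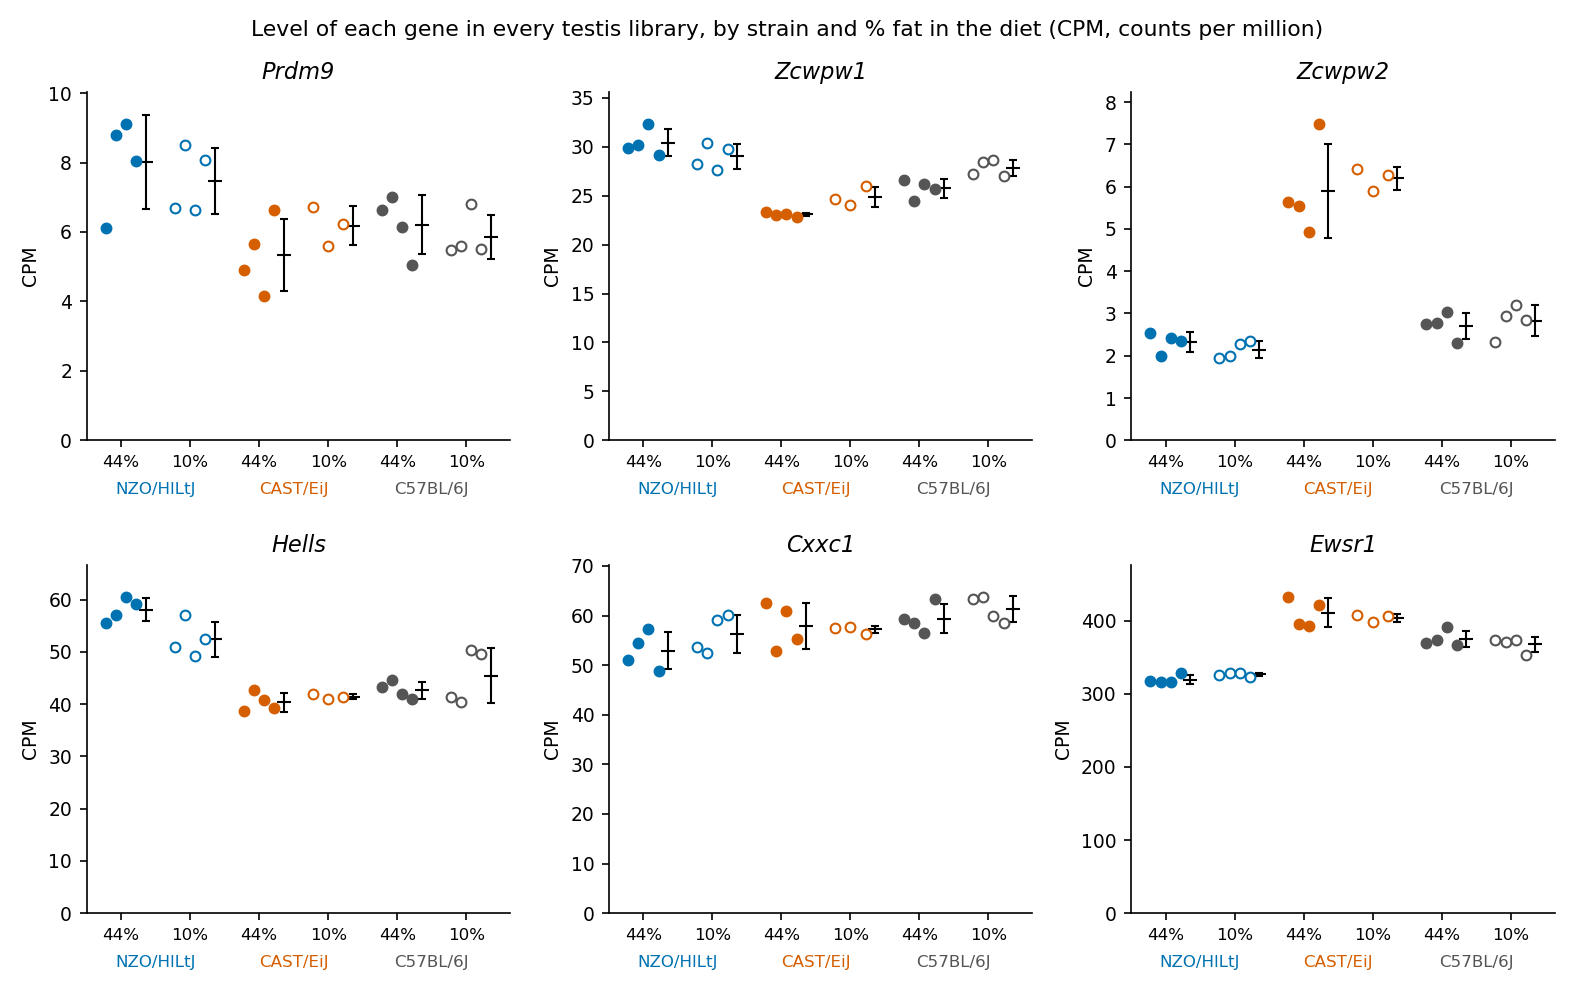
Level of each of the 6 genes in every testis library, in CPM on axes that start at 0, by strain and by percent fat in the diet. Points are libraries (filled for 44% fat, open for 10% fat), and the black mark beside them is the mean with the SD of the group (n = 4, or 3 for CAST/EiJ on 10% fat). Zcwpw2 in CAST/EiJ, at 4.94 to 7.49 CPM, stands above every library of the other strains, and Ewsr1 has no overlap between any 2 strains.

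The readers of the PRDM9 marks went different ways. Zcwpw2 was 2.18 times as high in CAST/EiJ as in C57BL/6J, the largest difference of that comparison among the 6 genes, while Zcwpw1 was slightly lower in CAST/EiJ. Zcwpw2 stood at 2.54, 1.99, 2.43 and 2.34 CPM in NZO/HlLtJ on 44% fat and 1.95, 1.98, 2.28 and 2.36 CPM on 10% fat. In CAST/EiJ it stood at 5.64, 5.53, 4.94 and 7.49 CPM on 44% fat and 6.41, 5.89 and 6.28 CPM on 10% fat. In C57BL/6J it stood at 2.74, 2.78, 3.04 and 2.29 CPM on 44% fat and 2.33, 2.95, 3.21 and 2.85 CPM on 10% fat. All 7 CAST/EiJ libraries were above all 16 of the other strains, whereas NZO/HlLtJ and C57BL/6J overlapped. The log2 fold change was 1.12 (SE 0.10) for CAST/EiJ over C57BL/6J (adjusted p = 2.95e-11, edgeR), -1.44 (SE 0.10) for NZO/HlLtJ over CAST/EiJ (adjusted p = 1.46e-13, edgeR) and -0.31 (SE 0.10) for NZO/HlLtJ over C57BL/6J (adjusted p = 0.00944, edgeR). Of all genes tested, 20.2% had a larger difference in size between CAST/EiJ and C57BL/6J, and 15.7% between NZO/HlLtJ and CAST/EiJ. Within each of the 3 runs of sample IDs, Zcwpw2 was higher in CAST/EiJ than in C57BL/6J, by 0.93 (run 2) to 1.28 (run 3) in mean log2 CPM. On the 44% fat groups alone, the difference between NZO/HlLtJ and C57BL/6J was -0.23 (adjusted p = 0.193, edgeR).

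Zcwpw2 (ENSMUSG00000032443, chr9:117876000-118040259, minus strand, GRCm38) has only 62 to 425 counts per library, and GENCODE M21 classes it as a transcribed unprocessed pseudogene, whereas RefSeq classes it as protein coding. It shares 147 exon bases with Gm26614, a lincRNA on the opposite strand. The sources used here do not give whether counting used strand, so reads in those bases cannot be told apart. Gm26614 stood at 0.632 ± 0.147 CPM in NZO/HlLtJ, 1.44 ± 0.405 CPM in CAST/EiJ and 0.734 ± 0.149 CPM in C57BL/6J, and its log2 fold change for CAST/EiJ over C57BL/6J was 1.00 (adjusted p = 1.87e-05, edgeR). The next gene, Azi2, 240 bases away, had a log2 fold change of 0.25 in the same comparison (adjusted p = 1.2e-05, edgeR), and Cmc1, 24263 bases away, had one of -0.94 (adjusted p = 2.21e-06, edgeR). Gm17399, 109972 bases away and low at 0.181 CPM in CAST/EiJ and 0.766 CPM in C57BL/6J, had one of -2.07 (adjusted p = 4.05e-07, edgeR). Whether these differences share a cause with that of Zcwpw2 was not tested.

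Zcwpw1 (ENSMUSG00000037108, chr5:137787798-137822621, plus strand) was ordered NZO/HlLtJ, C57BL/6J, CAST/EiJ. It ran from 29.2 to 32.4 CPM on 44% fat and 27.6 to 30.4 CPM on 10% fat in NZO/HlLtJ. In CAST/EiJ it ran from 22.9 to 23.3 CPM on 44% fat and 24.03 to 26.03 CPM on 10% fat, and in C57BL/6J from 24.5 to 26.6 CPM on 44% fat and 27.1 to 28.7 CPM on 10% fat. All NZO/HlLtJ libraries were above all CAST/EiJ libraries, and C57BL/6J overlapped both. The log2 fold change was 0.15 (SE 0.04) for NZO/HlLtJ over C57BL/6J (adjusted p = 0.00085, edgeR), -0.16 (SE 0.04) for CAST/EiJ over C57BL/6J (adjusted p = 0.000578, edgeR) and 0.31 (SE 0.04) for NZO/HlLtJ over CAST/EiJ (adjusted p = 3.03e-08, edgeR). Within the 10% fat groups alone, NZO/HlLtJ over C57BL/6J was 0.06 (adjusted p = 0.379, edgeR). Zcwpw1 shares 468 exon bases with Pilra on the opposite strand, which stood at 0.818 CPM in NZO/HlLtJ, 0.152 CPM in CAST/EiJ and 0.624 CPM in C57BL/6J, far below Zcwpw1 itself.

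Hells (ENSMUSG00000025001, chr19:38930915-38971051, plus strand), the remodeller, was higher in NZO/HlLtJ than in the other strains by about as much as Prdm9. It stood at 55.6, 56.97, 60.6 and 59.1 CPM in NZO/HlLtJ on 44% fat and 50.9, 56.98, 49.2 and 52.5 CPM on 10% fat. In CAST/EiJ it stood at 38.7, 42.7, 40.8 and 39.2 CPM on 44% fat and 41.9, 41.1 and 41.4 CPM on 10% fat. In C57BL/6J it stood at 43.2, 44.6, 41.9 and 40.9 CPM on 44% fat and 41.4, 40.4, 50.3 and 49.6 CPM on 10% fat. All NZO/HlLtJ libraries were above all CAST/EiJ libraries, and 7 of 8 were above all C57BL/6J libraries. The log2 fold change was 0.33 (SE 0.04) for NZO/HlLtJ over C57BL/6J (adjusted p = 2.82e-07, edgeR) and 0.43 (SE 0.05) for NZO/HlLtJ over CAST/EiJ (adjusted p = 1.94e-09, edgeR). For CAST/EiJ over C57BL/6J it was -0.10 (SE 0.05, adjusted p = 0.0475, edgeR), a call that was lost in 11 of the 15 fits that left out 1 library of these strains, with adjusted p between 0.0117 and 0.134. Within the runs of sample IDs, Hells in NZO/HlLtJ over C57BL/6J differed by 0.38, 0.50 and 0.16 in mean log2 CPM in runs 1, 2 and 3.

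Both PRDM9-binding partners Cxxc1 and Ewsr1 were lower in NZO/HlLtJ than in C57BL/6J. Ewsr1 (ENSMUSG00000009079, chr11:5069689-5099266, minus strand) ran from 316 to 328 CPM in NZO/HlLtJ, 393 to 433 CPM in CAST/EiJ and 353 to 391 CPM in C57BL/6J. No strain overlapped another in Ewsr1, and the order of the strains was the same within each of the 3 runs. Its log2 fold change was -0.20 (SE 0.03) for NZO/HlLtJ over C57BL/6J (adjusted p = 1.44e-07, edgeR), 0.13 (SE 0.03) for CAST/EiJ over C57BL/6J (adjusted p = 9.18e-05, edgeR) and -0.33 (SE 0.03) for NZO/HlLtJ over CAST/EiJ (adjusted p = 6.66e-12, edgeR). Ewsr1 has 3 processed pseudogenes with 94.9% to 95.7% identity over 1005 to 1730 bases, which are not among the counted genes, and shares 258 exon bases with Rhbdd3 on the opposite strand, so some of its count is uncertain. Cxxc1 (ENSMUSG00000024560, chromosome 18) ran from 48.8 to 60.1 CPM in NZO/HlLtJ, 52.9 to 62.6 CPM in CAST/EiJ and 56.4 to 63.8 CPM in C57BL/6J, and all 3 strains overlapped. Its log2 fold change was -0.15 (SE 0.04) for NZO/HlLtJ over C57BL/6J (adjusted p = 0.00418, edgeR). Within run 3 of the sample IDs, Cxxc1 averaged 59.6 CPM for NZO/HlLtJ and 59.5 CPM for C57BL/6J, and the difference of 0.00 in mean log2 CPM there compares with -0.22 and -0.21 in runs 1 and 2. For CAST/EiJ over C57BL/6J the log2 fold change was -0.07 (95% interval -0.16 to 0.02, adjusted p = 0.168, edgeR), and for NZO/HlLtJ over CAST/EiJ it was -0.08 (95% interval -0.17 to 0.01, adjusted p = 0.121, edgeR). The last passed the threshold under DESeq2 at -0.11 (adjusted p = 0.0263).

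**Figure D2:**
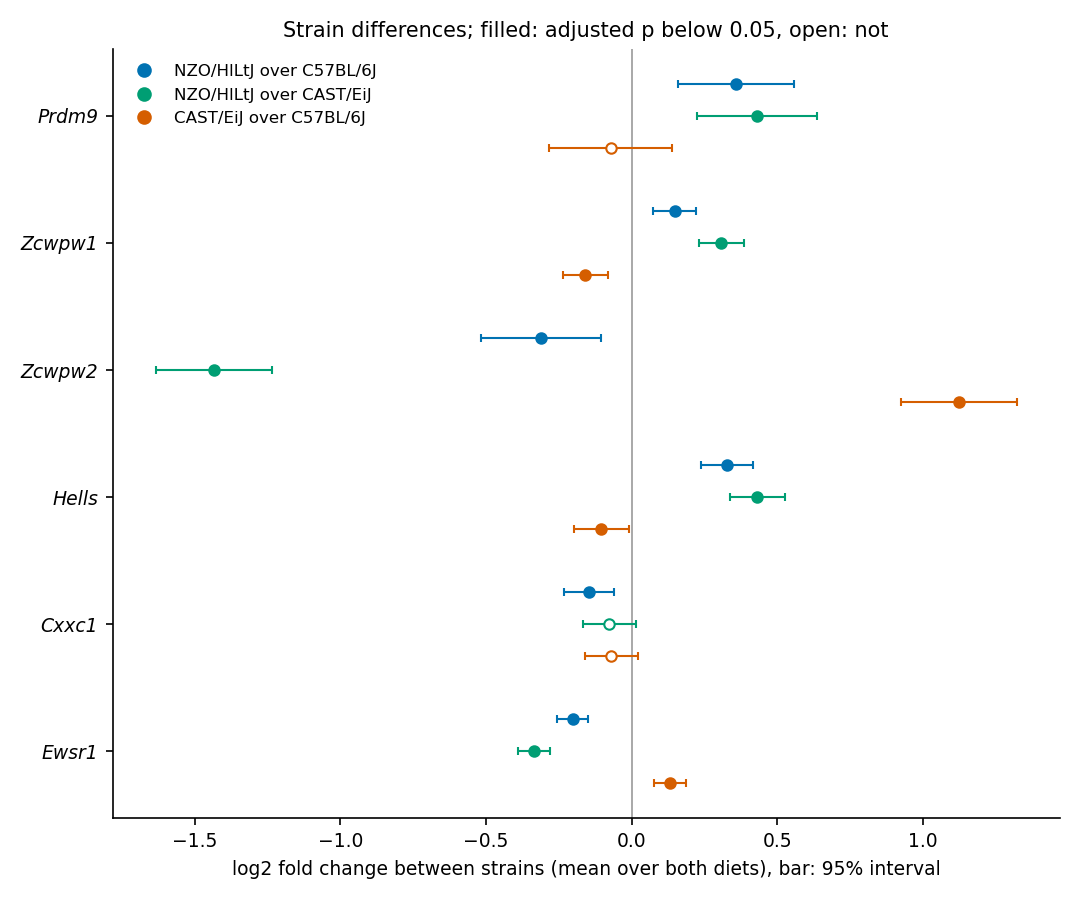
Log2 fold change of each gene between strains, averaged over both diets, with its 95% interval from the edgeR fit (n = 8 libraries for NZO/HlLtJ, 7 for CAST/EiJ and 8 for C57BL/6J). Filled points passed an adjusted p of 0.05. Prdm9, Zcwpw1 and Hells lie to the right of 0 and Zcwpw2, Cxxc1 and Ewsr1 to the left in both comparisons of NZO/HlLtJ. The open points are Prdm9 for CAST/EiJ over C57BL/6J and Cxxc1 in both comparisons of CAST/EiJ.

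Counted together, all 6 genes passed the test for NZO/HlLtJ over C57BL/6J, 3 higher and 3 lower, in a comparison where 59.1% of all genes did so (30.4% higher and 28.7% lower). For CAST/EiJ over C57BL/6J, 4 passed, of which Zcwpw2 and Ewsr1 were higher and Zcwpw1 and Hells lower, against 66.8% of all genes (32.7% higher and 34.1% lower). For NZO/HlLtJ over CAST/EiJ, 5 passed, 3 higher and 2 lower, against 72.1% of all genes (39.6% higher and 32.5% lower). These strain comparisons share libraries. Strain ranges without overlap were seen for 1 of the 6 genes between NZO/HlLtJ and C57BL/6J, where 26.3% of all genes had none, for 2 of 6 between CAST/EiJ and C57BL/6J (39.1% of all genes) and for 4 of 6 between NZO/HlLtJ and CAST/EiJ (43.9% of all genes). With strain differences this common, the counts single out none of the 3 comparisons. Zcwpw2 was the only one of the 6 genes with a log2 fold change beyond 0.5 in size, and it was so in both comparisons of CAST/EiJ.

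Per kilobase of GENCODE M21 exon length, the 6 genes kept the same order of levels in all 3 strains except at its low end. Ewsr1 was highest, at 54.7, 69.0 and 62.9 CPM per kilobase in NZO/HlLtJ, CAST/EiJ and C57BL/6J, followed by Cxxc1 at 13.9, 14.7 and 15.4. Hells came next at 7.67, 5.67 and 6.11, and then Zcwpw1 at 5.21, 4.19 and 4.70. At the low end, Prdm9 was above Zcwpw2 in NZO/HlLtJ (1.80 ± 0.26 and 0.766 ± 0.0785 CPM per kilobase) and in C57BL/6J (1.40 ± 0.168 and 0.950 ± 0.111). In CAST/EiJ the order of these 2 genes was turned round, with Prdm9 at 1.32 ± 0.215 and Zcwpw2 at 2.07 ± 0.278 CPM per kilobase. In no strain and in none of the 6 groups did the libraries' ranges of neighbours in this order overlap.

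Ratios within a library do not depend on its depth or scaling. Prdm9 and Hells kept nearly the same proportion in the 3 strains: there were 14.0 ± 1.52 Prdm9 counts per 100 Hells counts in NZO/HlLtJ, 14.0 ± 2.24 in CAST/EiJ and 13.7 ± 1.54 in C57BL/6J. These ranges covered one another, from 11.0 to 15.5 in NZO/HlLtJ, 10.2 to 16.9 in CAST/EiJ and 11.1 to 15.8 in C57BL/6J. Relative to Zcwpw1 the strains overlapped too. Prdm9 stood there at 26.0 ± 2.99 counts per 100 Zcwpw1 counts in NZO/HlLtJ, 23.9 ± 3.67 in CAST/EiJ and 22.6 ± 3.23 in C57BL/6J. Zcwpw2 did not keep its proportion to Prdm9, with 29.5 ± 6.15 counts per 100 Prdm9 counts in NZO/HlLtJ, 107 ± 9.02 in CAST/EiJ and 46.2 ± 4.87 in C57BL/6J. The CAST/EiJ range of 95.5 to 118 lay above the others, while the highest NZO/HlLtJ library, at 41.6, lay within the C57BL/6J range of 39.6 to 52.6. The 2 readers stood at 7.53 ± 0.773 Zcwpw2 counts per 100 Zcwpw1 counts in NZO/HlLtJ, 25.3 ± 3.59 in CAST/EiJ and 10.4 ± 1.11 in C57BL/6J.

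**Figure D3:**
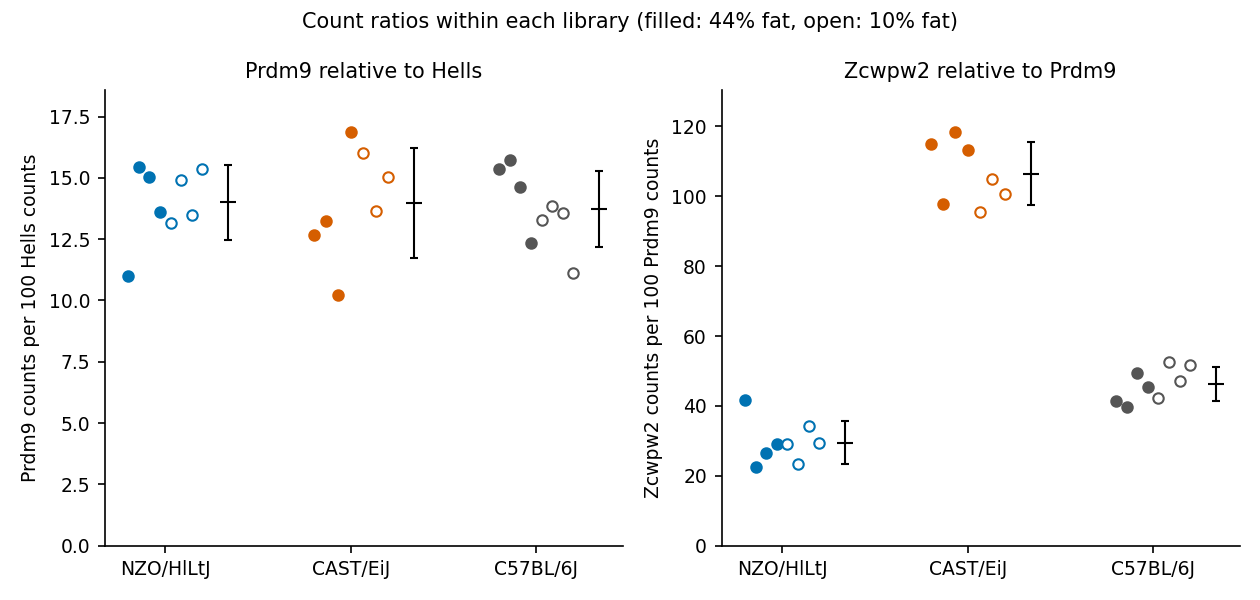
Counts of Prdm9 per 100 counts of Hells (left) and of Zcwpw2 per 100 counts of Prdm9 (right) in every library, by strain, on axes that start at 0. Filled points are 44% fat and open points 10% fat, and the black mark is the mean with the SD over the strain's libraries. Prdm9 to Hells has means of 14.0, 14.0 and 13.7 in NZO/HlLtJ, CAST/EiJ and C57BL/6J, whereas Zcwpw2 to Prdm9 is 29.5, 107 and 46.2.

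Prdm9 and Hells were both higher in NZO/HlLtJ than in the other strains, and their promoters are shown as RefSeq gives them for GRCm38.p6. Any part of these promoters in the strain differences was not tested. For each gene the 250 bases before a transcription start are given, read 5′ to 3′ in the direction of the gene. Capitals mark a match to CNCCTCAG, the motif bound by the meiotic activator STRA8, or to TTTCCCGC, a form of the E2F motif of cell cycle genes, each searched on both strands.
Prdm9 promoter, chr17:15564355-15564604, minus strand: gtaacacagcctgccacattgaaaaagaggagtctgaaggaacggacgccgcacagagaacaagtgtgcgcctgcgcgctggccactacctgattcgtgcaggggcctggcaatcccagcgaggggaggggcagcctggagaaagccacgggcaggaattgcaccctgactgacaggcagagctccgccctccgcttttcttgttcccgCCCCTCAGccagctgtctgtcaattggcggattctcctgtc
Hells promoter, chr19:38930740-38930989, plus strand: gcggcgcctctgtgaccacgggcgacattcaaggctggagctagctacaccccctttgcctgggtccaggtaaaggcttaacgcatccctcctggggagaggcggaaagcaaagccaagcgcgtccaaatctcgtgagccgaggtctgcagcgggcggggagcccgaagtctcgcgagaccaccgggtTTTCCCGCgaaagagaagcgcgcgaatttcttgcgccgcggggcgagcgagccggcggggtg
The window of Prdm9 held 1 match to the STRA8 motif, 41 bases before the start, and 0 to the E2F motif. That of Hells held 1 match to the E2F motif, 62 bases before the RefSeq start, and 0 to the STRA8 motif. The annotations place the start of Hells differently. The gene as placed above begins at chr19:38930915, so the end of this window and the E2F match lie inside that span. Of 32851 RefSeq promoters of this length, 6.42% held the STRA8 motif and 0.89% the E2F motif. A second start listed for Prdm9 and the starts listed for Zcwpw1, Zcwpw2 and Ewsr1 held neither. The promoter of Cxxc1 is not reported here. The motifs do not overlap each other, and a match is a description of letters, not of binding.

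Several kinds of cell differed in their marker levels between the strains, and in bulk tissue fewer cells of a type and less RNA per cell cannot be told apart. Relative to the mean log2 CPM of 14 markers of early meiotic prophase, such as the synaptonemal complex gene Sycp1 and the cohesin gene Rec8, Prdm9 was at -3.10 ± 0.20 in NZO/HlLtJ, -3.61 ± 0.21 in CAST/EiJ and -3.53 ± 0.17 in C57BL/6J (log2 units, SD). The range of NZO/HlLtJ, -3.42 to -2.88, overlapped that of CAST/EiJ, -3.98 to -3.36, and that of C57BL/6J, -3.80 to -3.29. On the same scale Hells was at -0.26 ± 0.08 in NZO/HlLtJ, -0.77 ± 0.05 in CAST/EiJ and -0.67 ± 0.08 in C57BL/6J, and Zcwpw2 at -4.86 ± 0.16, -3.53 ± 0.18 and -4.64 ± 0.15 in that order of strains. Of these 14 prophase markers, 2 were higher and 6 lower in NZO/HlLtJ than in C57BL/6J, a share called of 57.1% against 59.1% of all genes. Their summed level was 2010 to 2330 CPM in NZO/HlLtJ against 2210 to 2640 CPM in C57BL/6J. The median log2 fold change was -0.09 against 0.01 over all genes. In CAST/EiJ, 5 were higher and 4 lower than in C57BL/6J (64.3% called against 66.8% of all genes), with a summed level of 2580 to 2760 CPM. Any part of the prophase cells in the levels of Prdm9 and Hells was not tested.

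Markers of several other cell types also differed between NZO/HlLtJ and C57BL/6J, in a comparison where 30.4% of all genes were higher and 28.7% lower (59.1% in all). Of the markers of differentiating spermatogonia, 5 of 7 were higher and 0 lower in NZO/HlLtJ (597 to 636 CPM in sum in NZO/HlLtJ, 558 to 580 CPM in C57BL/6J). Of 9 tested markers of undifferentiated spermatogonia, 5 were higher and 1 lower (97.1 to 118 against 71.2 to 77.9 CPM), a share called of 66.7%. For CAST/EiJ over C57BL/6J, 32.7% of all genes were higher and 34.1% lower. In that comparison 5 of these 9 were higher and 0 lower, and of the 7 markers of differentiating spermatogonia 2 were higher and 1 lower. Of the Sertoli cell markers, 9 of 10 were higher and 0 lower in NZO/HlLtJ than in C57BL/6J (865 to 1190 against 756 to 821 CPM), and of the Leydig cell markers 5 of 7 were higher and 1 lower (1070 to 1560 against 532 to 793 CPM). Of the macrophage markers 5 of 6 were higher and 0 lower, of the peritubular myoid cell markers 4 of 6 higher and 1 lower, and of the endothelial markers 3 of 5 higher and 1 lower. Of the markers of pachytene spermatocytes 6 of 8, of round spermatids 7 of 8 and of elongating spermatids 8 of 9 were lower in NZO/HlLtJ, and 0 were higher. Of 11 markers of DNA replication, 6 were higher and 1 lower in NZO/HlLtJ than in C57BL/6J (63.6% called), with summed levels of 735 to 765 and 748 to 817 CPM. Of the adipose markers 0 of 6 were higher and 1 lower. Of 8 epididymis markers 2 were tested, 0 higher and 1 lower, and their sum ran from 0.0224 to 0.251 CPM in NZO/HlLtJ, 0.0296 to 99.1 CPM in CAST/EiJ and 4.24 to 17.5 CPM in C57BL/6J. No tested marker was at 0 in every library of a strain. The part of these differences in the levels of Prdm9 and Hells was not tested.

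Diet changed none of the 6 genes past the threshold in any strain. On 44% fat against 10% fat, 0 of 6 passed in NZO/HlLtJ, where 0.00437% of all genes did (1 gene), 0 of 6 in CAST/EiJ (0% of all genes) and 0 of 6 in C57BL/6J (0.00874%, 2 genes). Averaged over strains 0 of 6 passed, as did 0% of all genes, and the test that the diet effect differs between strains also called 0 of 6 and 0% of all genes. At an unadjusted p below 0.05 edgeR gave 1555 genes in NZO/HlLtJ, 941 in CAST/EiJ, 670 in C57BL/6J, 896 over strains and 1121 for the difference between strains. DESeq2 called 7, 3, 2, 6 and 8 genes in these 5 tests, none of them among the 6.

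The diet effect on Prdm9 was bounded loosely. It averaged 8.02 ± 1.35 CPM on 44% fat and 7.48 ± 0.950 CPM on 10% fat in NZO/HlLtJ, 5.34 ± 1.05 and 6.18 ± 0.554 CPM in CAST/EiJ, and 6.21 ± 0.853 and 5.86 ± 0.644 CPM in C57BL/6J. The log2 fold change for 44% over 10% fat was 0.10 (95% interval -0.17 to 0.38) in NZO/HlLtJ, -0.22 (-0.52 to 0.09) in CAST/EiJ and 0.08 (-0.20 to 0.37) in C57BL/6J, and -0.01 (-0.18 to 0.16) over strains. Zcwpw2 was bounded as loosely, while the intervals of Ewsr1 were the narrowest, at -0.11 to 0.04 in NZO/HlLtJ, -0.06 to 0.11 in CAST/EiJ and -0.05 to 0.10 in C57BL/6J.

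The smallest unadjusted diet p-values among the 6 genes belonged to Hells in NZO/HlLtJ and Zcwpw1 in C57BL/6J. Hells averaged 58.1 ± 2.22 CPM on 44% fat and 52.4 ± 3.33 CPM on 10% fat in NZO/HlLtJ, and the 2 diets overlapped. In edgeR's fit across all genes the log2 fold change was 0.15 (SE 0.06, adjusted p = 0.723, unadjusted p = 0.0222). In NZO/HlLtJ, the 44% fat libraries came from runs 1 and 2 of the sample IDs and the 10% fat libraries from runs 1 and 3. Within this strain alone, beyond run 1, diet and run cannot be told apart. In the fit of all strains with the run as a covariate, the log2 fold change of Hells was 0.15 (adjusted p = 0.833, edgeR). Zcwpw1 averaged 25.7 ± 0.941 CPM on 44% fat and 27.8 ± 0.825 CPM on 10% fat in C57BL/6J. In edgeR's fit across all genes the log2 fold change was -0.11 (SE 0.05, adjusted p = 1, unadjusted p = 0.0368). Zcwpw1 was lower in every library on 44% fat than in any on 10% fat in C57BL/6J and in CAST/EiJ. Such ranges without overlap occurred in 2.09% of all genes in C57BL/6J and 5.29% in CAST/EiJ (3.58% in NZO/HlLtJ, where none of the 6 genes had them). The edgeR test that the diet effect differs over the 3 strains gave unadjusted p = 0.0291 for Hells and 0.031 for Zcwpw1, with adjusted p = 0.943 for both.

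**Figure D4:**
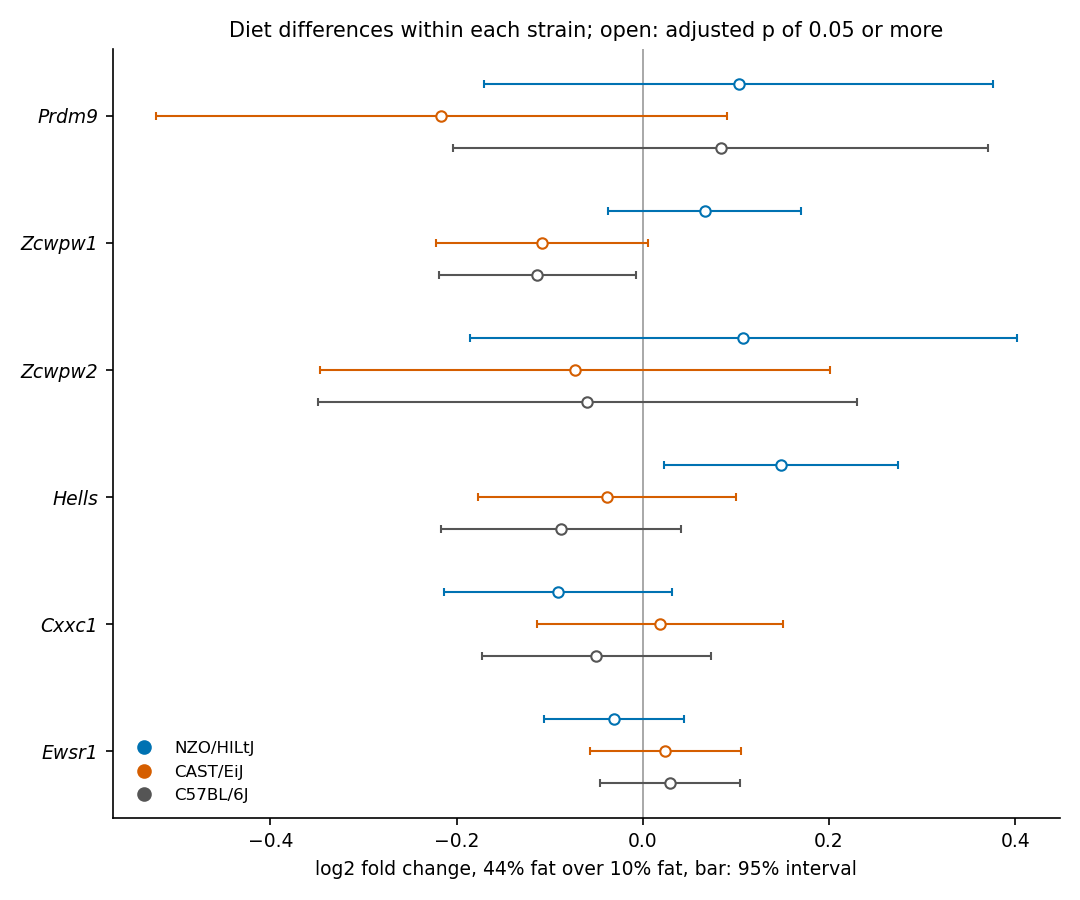
Log2 fold change of each gene for 44% over 10% fat within each strain, with its 95% interval from the edgeR fit (n = 4 on 44% and 4 on 10% fat, or 3 on 10% fat in CAST/EiJ). All 18 points are open because none passed an adjusted p of 0.05. The widest interval is that of Prdm9 in CAST/EiJ, -0.52 to 0.09.

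In the wider pathway some genes differed between strains far more than Prdm9 did. The lists were not tested as sets, and the share of each that was called stands beside that of all genes, 59.1% for NZO/HlLtJ over C57BL/6J, 66.8% for CAST/EiJ over C57BL/6J and 72.1% for NZO/HlLtJ over CAST/EiJ. For meiotic break formation and repair the shares were 62.5%, 68.8% and 78.1% in that order of comparisons. Of these 32 genes, 10 were higher and 10 lower in NZO/HlLtJ than in C57BL/6J (median log2 fold change -0.005, against 0.0069 over all genes), 9 higher and 13 lower in CAST/EiJ than in C57BL/6J (median -0.05 against -0.0012), and for NZO/HlLtJ over CAST/EiJ 16 higher and 9 lower (median 0.16 against 0.06). Ankrd31, which helps place breaks, averaged 67.8 CPM in NZO/HlLtJ, 23.9 CPM in CAST/EiJ and 79.8 CPM in C57BL/6J (log2 fold change for CAST/EiJ over C57BL/6J -1.73, SE 0.06, adjusted p = 3.89e-20, edgeR). Brca2, which acts in the repair of DNA breaks by recombination, averaged 105, 266 and 110 CPM in these strains (1.27, SE 0.05, adjusted p = 2.7e-20, edgeR), and Psmc3ip, a cofactor of strand exchange, 73.3, 39.7 and 87.4 CPM (-1.14, SE 0.04, adjusted p = 6.96e-20, edgeR). Between NZO/HlLtJ and C57BL/6J the largest were Meiob, which binds single-stranded DNA at breaks (23.4 and 14.0 CPM, log2 fold change 0.74), Mei1 (6.07 and 9.81 CPM, -0.69) and the break-forming Rec114 (2.10 and 1.32 CPM, 0.65), all with adjusted p below that of Prdm9 (edgeR, highest 0.00032).

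Among 20 genes that write or erase methyl marks on H3K4 and H3K36, 12 were higher and 3 lower in NZO/HlLtJ than in C57BL/6J (median log2 fold change 0.14), 10 higher and 3 lower in CAST/EiJ than in C57BL/6J (0.08) and for NZO/HlLtJ over CAST/EiJ 8 higher and 6 lower (0.06). The shares called were 75.0%, 65.0% and 70.0%. The H3K4 methyltransferase Kmt2a averaged 57.8 CPM in NZO/HlLtJ, 44.0 CPM in CAST/EiJ and 38.8 CPM in C57BL/6J (log2 fold change for NZO/HlLtJ over C57BL/6J 0.57, SE 0.06, adjusted p = 9.88e-10, edgeR). Setd2, which writes H3K36 trimethylation, averaged 132, 146 and 124 CPM (CAST/EiJ over C57BL/6J 0.23, adjusted p = 2.34e-05, edgeR). Among the erasers, Kdm1b averaged 13.0, 8.17 and 9.19 CPM and Kdm5d 9.87, 6.0 and 7.11 CPM in that order of strains. Their log2 fold changes for NZO/HlLtJ over C57BL/6J were 0.50 (adjusted p = 1.74e-07, edgeR) and 0.47 (adjusted p = 1.06e-05, edgeR). For CAST/EiJ over C57BL/6J, Kdm5d was lower (-0.25, adjusted p = 0.0131, edgeR) and the methyltransferase Kmt2d higher (0.31, adjusted p = 2.46e-08, edgeR).

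Of 14 other PRDM family genes, 12 were tested: 3 were higher and 4 lower in NZO/HlLtJ than in C57BL/6J, and 5 higher and 5 lower in CAST/EiJ. The shares called were 58.3% and 83.3%. Mecom averaged 1.22 CPM in NZO/HlLtJ, 2.87 CPM in CAST/EiJ and 0.614 CPM in C57BL/6J. Of 17 other reported partners of PRDM9 and relatives of the 6 genes, 8 were higher and 4 lower in NZO/HlLtJ than in C57BL/6J and 7 higher and 4 lower in CAST/EiJ (70.6% and 64.7% called). Cdyl2, a chromodomain protein related to the PRDM9 partner CDYL, averaged 45.4 CPM in NZO/HlLtJ, 18.4 CPM in CAST/EiJ and 26.6 CPM in C57BL/6J (NZO/HlLtJ over CAST/EiJ 1.30, SE 0.04, adjusted p = 1.34e-22, edgeR). Cdca7, which recruits HELLS to chromatin, averaged 8.69, 7.16 and 5.87 CPM, with a log2 fold change of 0.57 for NZO/HlLtJ over C57BL/6J (adjusted p = 1.2e-07, edgeR), in the same direction as Hells. Its relative Cdca7l averaged 5.40, 4.77 and 18.5 CPM and was lower in both strains than in C57BL/6J (-1.77 and -1.96, adjusted p at most 5.76e-19, edgeR). Diet called 0 genes of these 4 lists in any strain.

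By the root-mean-square difference of centred log2 CPM over the 23 libraries, among 14130 genes with an official symbol and at least 1 CPM, the genes most like Prdm9 were Zfp950 (0.14), Cnot6l (0.14), Cd2ap (0.15), Zscan26 (0.15) and Bmpr2 (0.15), where Prdm9 itself lay 0.27 from a flat line. Zfp950 averaged 10.2 CPM in NZO/HlLtJ, 7.57 CPM in CAST/EiJ and 8.12 CPM in C57BL/6J. Most like Zcwpw2 were Poli (0.16), Zfy1 (0.17) and Col8a1 (0.17), where Zcwpw2 lay 0.61 from flat, and Poli averaged 32.3, 80.6 and 37.9 CPM in the same order. Most like Hells were Rab5a, Zfp148 and Mob1a (0.05 to 0.07), most like Zcwpw1 were Hacd3, Appbp2 and Ctnnb1 (0.06 to 0.07), most like Cxxc1 were Ddx24, Daxx and Eef2 (0.05 to 0.06), and most like Ewsr1 were Hmox2, Gabarapl1 and Apba1 (0.04 to 0.05). These distances describe 23 libraries that share their strains and sequencing, and none of the genes named is another of the 6.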

How the data were processed

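Bulk polyA RNA of testis was sequenced from 23 samples in 6 groups, 3 strains on 2 diets, read as 100-base pairs per the labels. The deposited count table holds estimated counts per gene, of which 23.1% are not whole numbers (tolerance 1e-06), with totals of 21.9 to 78.7 M (1e+06). A second deposited table holds log2 values after a variance-stabilising transformation by the authors. The submitters' processing notes name GRCm38 and DESeq2. Of the aligner, counting tool, strand setting, annotation release and treatment of strain variants, none is stated in the sources used here. Every row has a count above 0 in at least 12 libraries, so rarer genes had been removed before deposit. Gene positions were taken from the annotation table deposited by the authors (in megabases), and exon lengths, overlaps and the Prdm9 transcript from GENCODE M21.

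Estimated counts were rounded to whole numbers, filtered with filterByExpr on the 6 groups and tested in R 4.3.3 with edgeR 4.0.16 (quasi-likelihood F test, TMM scaling, 1 mean per group, all 23 libraries in 1 fit), with Benjamini-Hochberg adjustment over 22873 genes and a threshold of 0.05. Strain contrasts average both diets. Relative levels used log2 CPM with a prior count of 2. Alternatives were DESeq2 1.42.0, its size factors, limma 3.58.1 on the deposited log2 values, no filter, only the groups compared, each diet alone, the run of sample IDs as a covariate, each library left out, and, added after seeing the data, each of the 3 runs alone. No label says that these runs are batches. Counts of 33 replicate pairs gave a chi-square over degrees of freedom of 3.47 to 18.9, more than counting error, so each library counted as 1 sample. Near copies were sought with blastn 2.17.0 (at least 200 bases at 90% identity). Standard errors come from the fit, and counting error covers reads, not molecules.

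The members and the 18 gene lists (4 of pathways, 14 of cell types) were chosen with earlier results of these data known. Named genes were the 6 members, up to 3 called genes per pathway list and strain comparison with the largest fold change and at least 1 CPM, and the 3 to 5 genes most like each member in pattern. A gene that this rule names is not reported here.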

Additional observations from a re-analysis of the deposited data

Results flagged for a closer look

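Over 30 combinations of a gene and a group of 4 libraries, 3 had a library whose gap to the nearest other exceeded Dixon's 95% limit. Chance flags about 1 in 20 such groups. Prdm9 in C57BL/6J on 10% fat stood at 6.82 CPM in replicate 3 and at 5.49 to 5.60 CPM in the others. Ewsr1 in NZO/HlLtJ on 44% fat stood at 328.3 CPM in replicate 4 and at 316 to 317 CPM in the others. Ewsr1 in C57BL/6J on 10% fat stood at 352.8 CPM in replicate 4, the library with the lowest total (21.9 M, 1e+06, estimated counts), and at 371 to 374 CPM in the others. Without these libraries, the strain calls of Prdm9 and Ewsr1 were kept.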

How the results depend on the processing

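Of the strain differences, all called values of Prdm9, Zcwpw1, Zcwpw2, Hells, Cxxc1 and Ewsr1 kept their sign in each other edgeR, DESeq2 and limma fit, and leaving out 1 library left 6 of the 6 genes called for NZO/HlLtJ over C57BL/6J, 3 to 4 for CAST/EiJ over C57BL/6J and 5 to 6 for NZO/HlLtJ over CAST/EiJ. Of 138 diet fold changes of the 6 genes under settings other than leaving out a library, 0 passed. Hells in CAST/EiJ over C57BL/6J lost its call without the filter (adjusted p = 0.0627), with the run covariate (0.0641), under limma (0.0522), in the fit of the 2 strains (0.0504) and on 10% (0.112) or 44% fat alone (0.282). On 10% fat alone the call of Prdm9 in NZO/HlLtJ over CAST/EiJ was lost too (0.27, adjusted p = 0.116, edgeR). So were those of Zcwpw1 (0.06, adjusted p = 0.379, edgeR) and Cxxc1 (-0.12, adjusted p = 0.094, edgeR) in NZO/HlLtJ over C57BL/6J. On 44% fat alone, Zcwpw2 in NZO/HlLtJ over C57BL/6J lost its call (-0.23, adjusted p = 0.193, edgeR). The cause of these losses was not tested. Within run 3 of the sample IDs alone, the called difference of Cxxc1 in NZO/HlLtJ over C57BL/6J turned its sign, at 0.004 in mean log2 CPM.

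With the median of the prophase markers in place of their mean, levels relative to prophase moved more. For NZO/HlLtJ minus C57BL/6J, Zcwpw1 gave 0.11, Hells 0.29 and Ewsr1 -0.24. For CAST/EiJ minus C57BL/6J, Prdm9 gave -0.35, Zcwpw1 -0.43, Zcwpw2 0.84, Hells -0.37, Cxxc1 -0.33 and Ewsr1 -0.13, whose sign turned. For NZO/HlLtJ minus CAST/EiJ, Zcwpw1 gave 0.54, Hells 0.66, Cxxc1 0.15 and Ewsr1 -0.11, with Cxxc1 also turned. When 1 library was left out, the count of all genes called for diet ran from 0 to 5 in NZO/HlLtJ (1 with all libraries). It ran from 0 to 3 in CAST/EiJ (0 with all libraries) and from 0 to 2 in C57BL/6J (2 with all libraries).

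No paired analysis was possible because the labels carry no replicate numbers. Depth limits Prdm9 and Zcwpw2 most, with as few as 120 and 62 counts in a library.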
